A study of Mus musculus with 6 samples.

Results

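Cystine uptake and ferroptosis genes were compared between cells labelled cancer stem cells (CSC) and cells labelled non-CSC, both of EO771, a mouse mammary carcinoma line. The 10 genes were chosen by name for their roles, with earlier results of these data already known. Slc7a11, Gclc and Gclm act in cystine uptake and glutathione synthesis, and Gpx4 and Aifm2 in defence against lipid peroxidation. Acsl4 and Lpcat3 act in membrane lipid supply, and Tfrc, Fth1 and Slc40a1 in iron handling. All 10 were found by symbol among the 49523 genes of the count table, and all 10 were among the 17630 genes with enough counts to be tested. Each group had 3 RNA sequencing libraries, and the labels give no treatment or genetic change for either group. They do not say how CSC were separated, nor whether replicates were grown separately. The p-values therefore reflect the spread among the deposited samples, and that spread may be technical.

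Libraries held 27099879 to 35971131 counts, and replicates differed by more than counting noise (chi-square per degree of freedom 3.21 to 7.30 within groups and 85.4 to 89.2 between them). Of 12 epithelial and mammary markers 11 were tested. All 12 together summed to 3666 to 3858 CPM (counts scaled to a common library total) in non-CSC and 4363 to 4576 CPM in CSC. Of the 11 tested, 5 rose and 4 fell. Krt7 rose from 501 to 1057 CPM, while Cldn3 fell from 240 to 171 CPM, Epcam from 21.3 to 10.3, Cldn4 from 5.66 to 1.34 and Krt5 from 3.64 to 1.01 CPM. The keratin genes Krt18 and Krt8 were abundant in every library, whereas Cdh1 (E-cadherin) was under 1 CPM on average in both groups. Of 10 leukocyte markers 4 were tested, of which 3 rose at least 2-fold and 1, Cd68, fell. The list had a sum of 30.2 to 31.6 CPM in non-CSC and 45.5 to 45.6 CPM in CSC. Adgre1 and Cd3e had no counts and Ptprc averaged 0.0864 and 0.152 CPM. Of 9 fibroblast markers 3 were tested. The sum of all 9, at 555 to 589 CPM in non-CSC and 1196 to 1243 CPM in CSC, came almost wholly from Dcn, with Lum and Thy1 at 0. Of 7 endothelial markers 2 were tested. All 7 summed to 1.38 to 1.75 CPM in non-CSC and 5.83 to 6.07 CPM in CSC, and Vwf rose from 0.899 to 5.46 CPM. The 1 adipocyte marker tested of 5, Pparg, fell from 6.49 to 1.32 CPM, and the erythroid markers, 1 of 6 tested, summed to 1.08 to 1.47 CPM and 1.96 to 2.07 CPM. The part of these markers in the results was not tested.

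Ferroptosis is a form of cell death driven by iron-dependent peroxidation of membrane phospholipids. Cells hold it back with glutathione, made from imported cystine, which the selenoenzyme GPX4 uses to reduce lipid peroxides. Polyunsaturated lipids and free iron feed the reaction, so that fatty acid activation, transferrin uptake, ferritin storage and iron export are counted among its controls.

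In CSC the 3 members of cystine uptake and glutathione synthesis fell, Gpx4 was level, and the lipid members and Aifm2 rose by small amounts. Among the iron members, Tfrc (uptake) and Slc40a1 (export) rose while Fth1 (storage) fell. With edgeR's quasi-likelihood test and a threshold of 0.05 on p adjusted over all 17630 genes, 9 of the 10 differed, 5 higher and 4 lower. The background in this comparison was high, since 66.5% of all tested genes differed, 33.4% higher and 33.1% lower, and 73.1% did so among genes with a mean of at least 50 counts. The members' count is therefore near what any expressed genes gave, and the sizes of the changes tell more. Lack of overlap between the groups was also common, at 69.3% of all tested genes. Changes of at least 2-fold were found for 3 members, Slc7a11, Gclm and Tfrc, against 12.1% of all genes tested. The median log2 fold change of the members was 0.09, beside 0.01 over all genes. Because these are bulk samples, fewer cells of a type and less RNA per cell cannot be told apart.

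**Figure D1:**
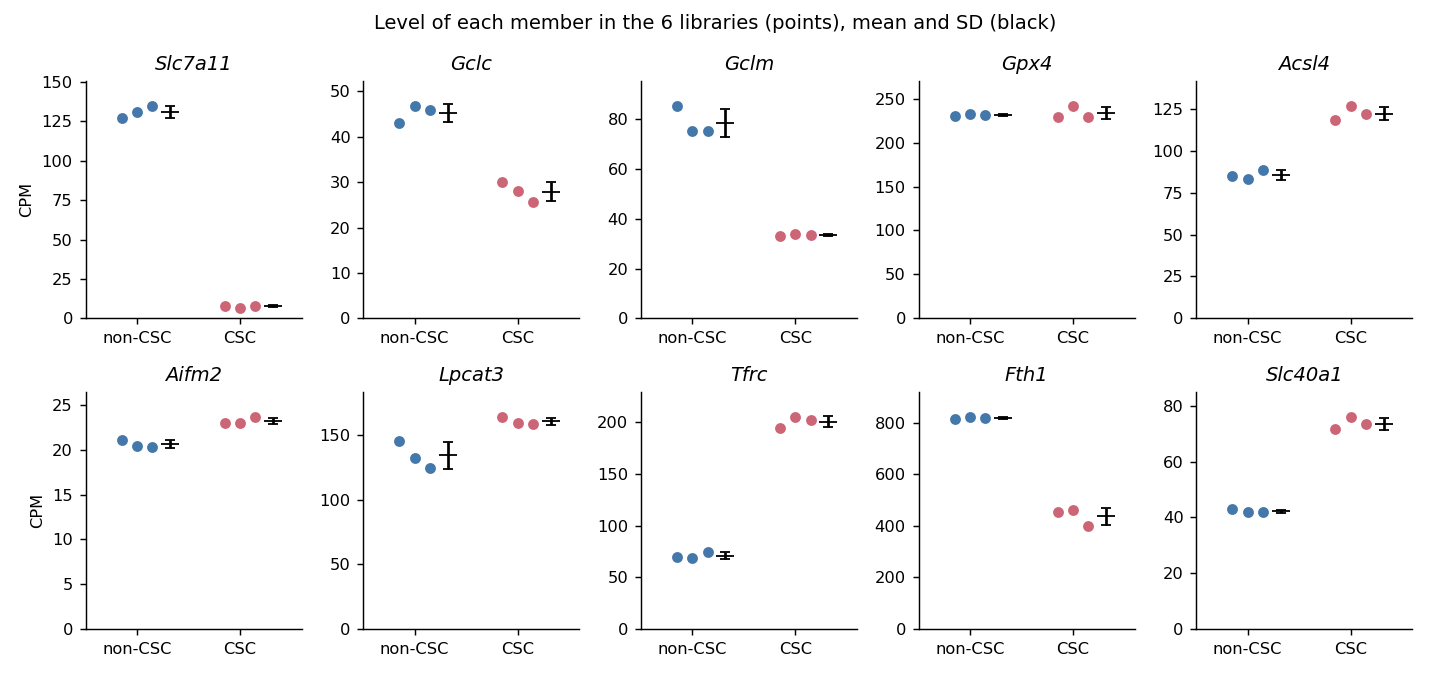
Level of each member in CPM (vertical axis from 0) in 3 non-CSC libraries (blue) and 3 CSC libraries (red), with the group mean and SD in black. The groups overlap only for Gpx4, and over all tested genes 69.3% had groups that did not overlap. The largest fold gap is that of Slc7a11, with 127 to 135 CPM in non-CSC and 6.75 to 7.99 CPM in CSC.

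Slc7a11 encodes xCT, the light chain of the cystine-glutamate exchanger, and had the largest change of the 10. Its level was 127, 131 and 135 CPM in the non-CSC libraries and 7.99, 6.75 and 7.96 CPM in the CSC libraries. The lowest non-CSC library was far above the highest CSC library, and the spread within each group was narrow. The means of 131 ± 3.83 and 7.57 ± 0.706 CPM (SD, n = 3 each) were 17.3-fold apart, with a log2 fold change of -4.11 ± 0.058 (SE; edgeR adjusted p = 2.05e-24). The counts behind the low level were 220, 191 and 231. Ordered by fold change from the lowest, Slc7a11 stood at rank 19 of 17630 genes.

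The promoter of Slc7a11 is shown because it is known to be driven by ATF4, the transcription factor of the amino acid response, whose binding sites have the core TGATGNAA. In the 250 bases before the start given in RefSeq's promoter table (GRCm38.p6), this core was searched on both strands and matched at 66 and 47 bases before the start, once on each strand. The stretch from 120 to 21 bases before the start (chr3:50443634-50443733, minus strand) reads as follows, with the matches in capitals. This start lies inside the span that RefSeq gives the gene (50364936 to 50499087 on chromosome 3) and next to the end at 50443614 that GENCODE M21 gives it.
Slc7a11: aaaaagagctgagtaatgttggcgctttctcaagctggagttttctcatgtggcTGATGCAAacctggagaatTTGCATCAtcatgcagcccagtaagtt
Of 32817 windows of the same length, 3.45% held the core and 13 (0.0396%) held it more than once. Of the 10 members 8 were in the promoter table, all but Gclc and Slc40a1, and among these the core was matched for Slc7a11 only. The core was chosen after the changes were seen. Of genes named below that also fell, Chac1 held 1 match, while Trib3, Ddit3, Atf4 and Slc3a2 held 0. A match is a run of letters, not shown binding.

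Slc3a2, the heavy chain that carries xCT to the membrane and also partners other amino acid transporters, fell by less. It was at 377, 354 and 346 CPM in non-CSC and at 138, 146 and 139 CPM in CSC, a log2 fold change of -1.34 ± 0.040 (SE; edgeR adjusted p = 1.58e-18). Per kilobase of exon, the library ratio of Slc7a11 to Slc3a2 was 0.103, 0.114 and 0.119 in non-CSC and 0.0177, 0.0142 and 0.0175 in CSC. The light chain was thus 6.81-fold lower against its partner in CSC, a ratio that does not depend on scaling between libraries.

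Gclm and Gclc encode the modifier and the catalytic subunit of glutamate-cysteine ligase, the first and rate-limiting enzyme of glutathione synthesis. Gclm was at 85.3, 75.3 and 75.3 CPM in non-CSC and at 33.0, 34.1 and 33.5 CPM in CSC. It fell by 1.23 ± 0.051 on the log2 scale (SE; edgeR adjusted p = 9.95e-16), a 2.35-fold difference. Gclc was at 43.0, 46.7 and 45.9 CPM in non-CSC and at 29.9, 28.0 and 25.7 CPM in CSC, and fell by 0.70 ± 0.055 (SE; edgeR adjusted p = 1.28e-10). Neither gene's groups overlapped. The ratio of catalytic to modifier subunit per kilobase was 0.944 ± 0.105 in non-CSC and 1.36 ± 0.116 in CSC (SD, n = 3 each), higher in each CSC library than in any non-CSC library. The size of this ratio depends on the exon length assumed for Gclm, here 5589 bases. A shorter coding transcript, of 1088 bases, would give Gclm 72.3 and 30.8 CPM per kilobase in place of 14.1 and 5.998, and so a far lower ratio.

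The Gclm promoter is printed because NRF2, the antioxidant transcription factor, is known to act on this gene. The antioxidant response core TGACNNNGC, searched on both strands, matched once, on the minus strand, starting 134 bases before the start, and 10.2% of all windows held it. No other member in the promoter table had a match, and this core too was chosen after the changes were seen. The stretch from 180 to 81 bases before the start (GRCm38.p6, chr3:122245377-122245476, plus strand) is given with the match in capitals, as its reverse complement.
Gclm: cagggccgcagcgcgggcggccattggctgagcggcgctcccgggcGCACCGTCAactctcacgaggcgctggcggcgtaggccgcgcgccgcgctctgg

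Gpx4, which encodes the phospholipid hydroperoxide glutathione peroxidase, was the only member not called. Its level was 230, 232 and 231 CPM in non-CSC and 229, 241 and 230 CPM in CSC, so that the groups overlapped. The log2 fold change was 0.01 with a 95% interval of -0.06 to 0.09 (edgeR adjusted p = 0.755). Of the 50-base words of its longest coding transcript, 61.7% are shared with other annotated transcripts, among them those of the pseudogene Gpx4-ps2, so its level is uncertain. The counts assigned to Gpx4-ps2 gave 53.3 ± 2.44 CPM in non-CSC and 53.97 ± 1.79 CPM in CSC (SD, n = 3 each), with a log2 fold change of 0.02 (edgeR adjusted p = 0.738).

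Aifm2 encodes FSP1, an oxidoreductase that reduces ubiquinone at membranes and acts independently of glutathione. It was at 21.1, 20.4 and 20.3 CPM in non-CSC and at 23.0, 23.0 and 23.6 CPM in CSC. The CSC libraries were all higher, by 12.7% on average, with a log2 fold change of 0.17 ± 0.054 (SE; edgeR adjusted p = 0.00748). On the opposite strand, exons of another gene cover 6.72% of its exon bases. No source used here says whether counting took account of strand, so reads there cannot be told apart.

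Acsl4 encodes the acyl-CoA synthetase that activates arachidonic and other polyunsaturated fatty acids. It was at 83.0 to 88.8 CPM in the 3 non-CSC libraries and at 119, 127 and 122 CPM in CSC, without overlap, with means of 85.6 ± 2.94 and 122 ± 4.07 CPM (SD, n = 3 each). It rose by 0.52 ± 0.039 on the log2 scale (SE; edgeR adjusted p = 6.19e-11). Acsl3, which activates monounsaturated fatty acids, rose by 0.25 ± 0.037 (SE; edgeR adjusted p = 2.87e-06), and the ratio of Acsl4 to Acsl3 per kilobase went from 0.712 ± 0.028 to 0.859 ± 0.039 (SD, n = 3 each). Exons of Utp14b cover 5.22% of the exon bases of Acsl3.

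Lpcat3, the lysophospholipid acyltransferase that places polyunsaturated chains into phospholipids, rose by 0.26 ± 0.045 on the log2 scale (SE; edgeR adjusted p = 3.69e-05). Its levels of 146, 133 and 125 CPM in non-CSC spread more widely than the 164, 159 and 159 CPM in CSC, and did not overlap them. Opposite exons of Emg1 cover 14.6% of its exon bases. Emg1 itself had a log2 fold change of -0.18 (edgeR adjusted p = 0.000699).

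Tfrc, the transferrin receptor that brings iron into the cell, had the largest rise of the 10. It was at 69.4, 68.6 and 74.9 CPM in the non-CSC libraries and at 195, 205 and 202 CPM in the CSC libraries. Every CSC library exceeded every non-CSC library by a wide margin, and the means of 71.0 ± 3.46 and 201 ± 5.29 CPM (SD, n = 3 each) were 2.83-fold apart. The 95% interval of the log2 fold change was 1.42 to 1.58 (edgeR adjusted p = 3.07e-19).

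Fth1 encodes the heavy chain of ferritin, which oxidises iron and stores it. Its level was 814, 822 and 820 CPM in non-CSC and 453, 460 and 399 CPM in CSC, lower in all 3 CSC libraries. It fell by 0.90 ± 0.044 on the log2 scale (SE; edgeR adjusted p = 1.89e-13), a 1.87-fold difference. Ftl1, the ferritin light chain, fell by a like amount, from 2015 ± 167 to 1057 ± 35.2 CPM (SD, n = 3 each; log2 fold change -0.93, edgeR adjusted p = 2.63e-10). Other transcripts share 78.9% of the 50-base words of Ftl1. Exons of other genes cover 11.3% of its exon bases on the same strand and 36.7% on the opposite strand. The level of Ftl1 is therefore uncertain.

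Slc40a1 encodes ferroportin, the iron exporter. It was at 42.8, 42.0 and 41.9 CPM in non-CSC and at 71.6, 75.96 and 73.4 CPM in CSC, and the groups did not overlap. It rose by 0.80 ± 0.043 on the log2 scale (SE; edgeR adjusted p = 1.02e-13). Ferroportin is known to be high in macrophages. Of the leukocyte markers, Csf1r went from 1.85 to 8.06 CPM, Itgam from 0.741 to 10.2 CPM and Ly6g from 2.20 to 9.02 CPM. In contrast, Cd68 went from 25.4 to 17.8 CPM and Lyz2, not tested, from 0.273 to 0.0714 CPM, and Adgre1 had no counts. Whether these bear on Slc40a1 was not tested.

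Iron response elements are RNA hairpins bound by the iron regulatory proteins, which are known to stabilise the Tfrc message and to hold back translation of ferritin and ferroportin. They are shown because the iron members that carry them moved in different directions. A match was defined as the loop CAGTGN, with its last base not G, in the sense strand only, enclosed by 5 paired bases on each side and preceded by an unpaired C. In the longest coding transcript of 21901 genes (GENCODE M21, GRCm38), 205 genes (0.936%) had a match, and 3 of the 10 members had one in an untranslated region. The sites are printed as 30 bases of the transcribed strand, written with T, with the loop in capitals, those of Fth1, Ftl1 and Slc40a1 from the leader before the coding sequence and those of Tfrc from the tail after it. They lie at chr19:9982732-9982761 (plus strand), chr7:45459778-45459807 (minus strand) and chr1:45925464-45925493 (minus strand), and for Tfrc on the plus strand between chr16:32631219-32631248 and chr16:32631710-32631739.
Fth1: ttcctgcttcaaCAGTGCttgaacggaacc
Ftl1: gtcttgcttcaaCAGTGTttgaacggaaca
Slc40a1: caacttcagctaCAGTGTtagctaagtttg
Tfrc, site 1: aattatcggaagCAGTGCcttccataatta
Tfrc, site 2: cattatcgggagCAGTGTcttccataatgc
Tfrc, site 3: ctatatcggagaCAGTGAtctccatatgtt
Tfrc, site 4: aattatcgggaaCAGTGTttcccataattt
The genes with leader sites did not share a direction, since Fth1 and Ftl1 fell and Slc40a1 rose, and Tfrc, with 4 tail sites, rose.

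Ratios within a library set the iron genes against each other. The ratio of Tfrc to Fth1 per kilobase was 0.0256, 0.0250 and 0.0274 in non-CSC and 0.129, 0.134 and 0.152 in CSC, 5.32-fold higher in CSC. That of Fth1 to Ftl1 was 0.254 ± 0.021 and 0.257 ± 0.013 (SD, n = 3 each), and its groups overlapped. This ratio is as uncertain as the level of Ftl1. In exact two-sided permutation tests of the 5 log2 ratios, 4 gave p = 0.1, the smallest that 3 against 3 libraries allow, and Fth1 to Ftl1 gave p = 0.8 (Benjamini-Hochberg adjusted exact p = 0.125 and 0.8).

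**Figure D2:**
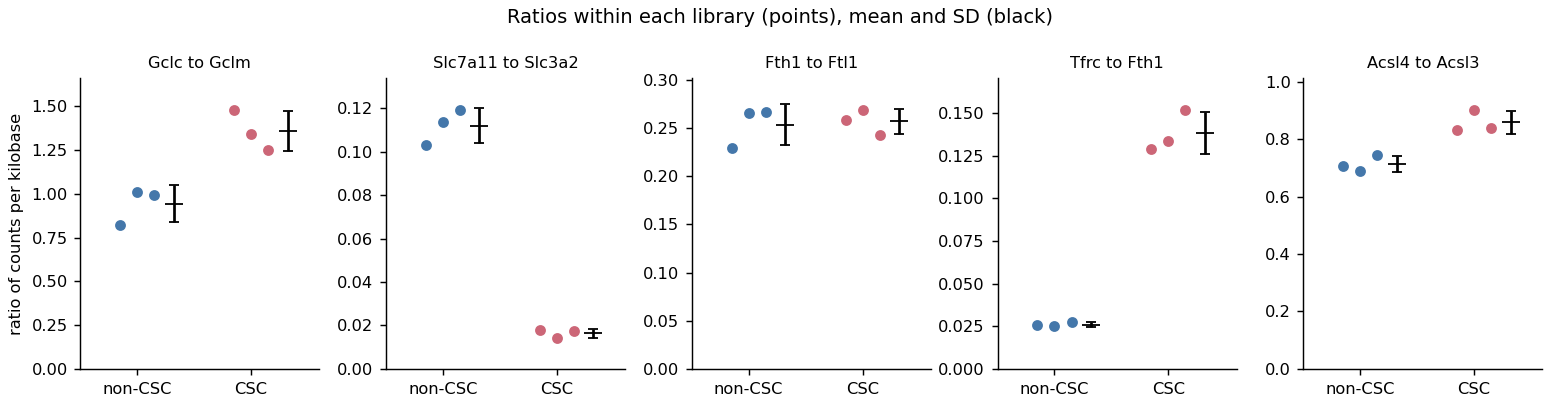
Ratio of counts per kilobase of exon for 5 pairs of genes (vertical axes from 0) in each non-CSC (blue) and CSC (red) library, with mean and SD in black. The ratio of Tfrc to Fth1 is 5.32-fold higher in CSC, that of Slc7a11 to Slc3a2 is 6.81-fold lower, and Fth1 to Ftl1 overlaps. The level of Ftl1 is uncertain.

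Levels per kilobase of exon placed Fth1 first in both groups, at 525 ± 2.77 CPM per kilobase in non-CSC and 281 ± 21.3 in CSC (SD, n = 3 each). Gpx4 was next, at 182 ± 0.994 and 184 ± 5.33, then Lpcat3, at 58.9 ± 4.61 and 70.5 ± 1.24. In non-CSC the next 6 genes, from Acsl4 at 16.1 to Slc40a1 at 12.5 CPM per kilobase, lay close together. Within that run, Gclm (14.1 ± 1.03), Tfrc (13.7 ± 0.665), Slc7a11 (13.3 ± 0.389) and Gclc (13.2 ± 0.569) did not differ by more than their SDs. Aifm2 was the lowest there, at 5.94 ± 0.133. In CSC these genes spread apart, with Tfrc at 38.6 ± 1.02, Acsl4 at 23.0 ± 0.763, Slc40a1 at 21.9 ± 0.644, Gclc at 8.15 ± 0.624, Aifm2 at 6.70 ± 0.103 and Gclm at 5.998 ± 0.097 CPM per kilobase. Slc7a11 moved from 7th to last, at 0.768 ± 0.072. These levels depend on the exon length assumed. For Slc7a11 the shorter coding transcript, of 2419 bases, would give 54.1 and 3.13 CPM per kilobase in place of the values from 9848 bases.

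Stretches of chromosome may differ between the groups, so each member was set beside the 30 tested genes adjacent to it on its chromosome. Slc7a11 lies on chromosome 3 (50364936 to 50499087 in RefSeq, GRCm38.p6), and its neighbours had a median log2 fold change of -0.53, with 20 of 30 lower in CSC and 3 higher. None of the 30 fell as far as Slc7a11, whose difference from their median was -3.58. Gclm, elsewhere on chromosome 3, had neighbours with a median of -0.38, of which 17 fell and 4 rose, and 2 fell at least as far as Gclm. For the other 8 members the median of these 30 neighbours was between -0.14 and 0.16, and it moved with the window, for Slc40a1 to 0.31, Tfrc to 0.27, Lpcat3 to 0.28 and Fth1 to -0.22 in windows of 20 or 60 genes. The difference from that median on the log2 scale was -0.76 for Fth1, -0.79 for Gclc, 1.36 for Tfrc, 0.66 for Slc40a1 and 0.65 for Acsl4. For Lpcat3, 11 of 30 neighbours rose at least as much, as did 11 of 30 for Aifm2, and with 20 neighbours Lpcat3 differed from their median by -0.017. The part of these stretches in the members' changes was not tested.

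**Figure D3:**
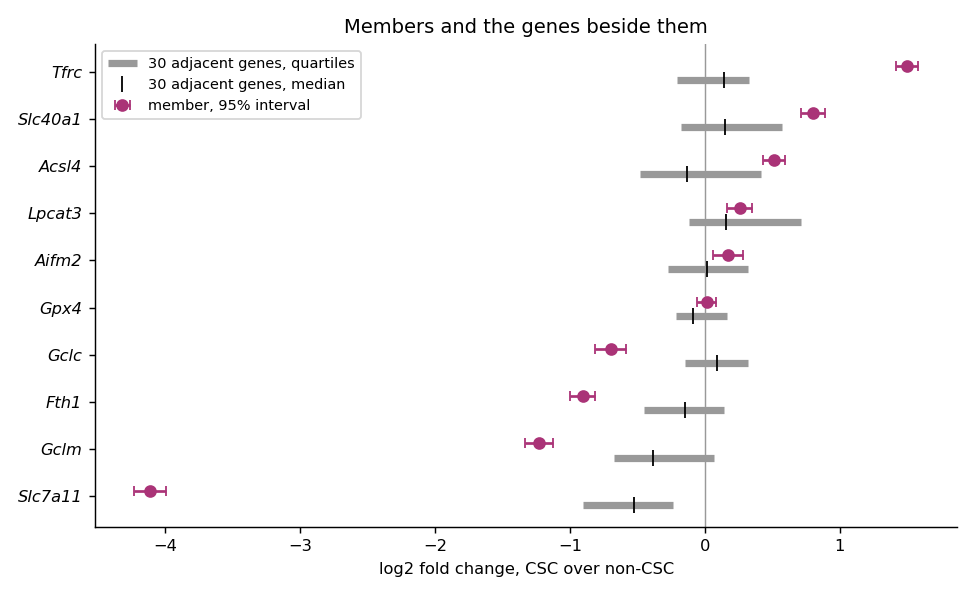
Log2 fold change (horizontal axis, CSC over non-CSC) of each member with its 95% interval (purple), above the median (black tick) and quartiles (grey bar) of its 30 adjacent tested genes. Slc7a11, at -4.11, lies outside the range of its neighbours, whose median is -0.53.

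Other genes of the pathway were grouped by role, and over all tested genes 33.4% were called higher and 33.1% lower. Of 24 tested genes of cystine and glutathione metabolism, 13 fell and 7 rose, with a median log2 fold change of -0.13. Chac1, which degrades glutathione, fell from 42.0 ± 1.72 to 3.36 ± 0.151 CPM, and Cth, which makes cysteine from cystathionine, from 8.75 ± 0.239 to 2.53 ± 0.119 CPM (SD, n = 3 each). The glutamine transporter gene Slc38a1 rose from 26.4 ± 1.55 to 75.8 ± 0.565 CPM. Gss, the second enzyme of glutathione synthesis, was chosen after its value was seen and rose by 0.59 ± 0.048 (SE; edgeR adjusted p = 2.40e-10), against the direction of Gclc and Gclm.

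Of 10 genes of selenoprotein synthesis, on which GPX4 depends, 6 fell and 3 rose, none of them 2-fold (median -0.28). Trit1, which modifies the selenocysteine tRNA among others, fell by 0.96, and Lrp8, a receptor for selenoprotein P, fell by 0.65 on the log2 scale. Selenop, which encodes selenoprotein P, rose by 0.71 and Secisbp2, which binds the selenocysteine insertion element, rose by 0.70. Opposite exons of Ccdc152 cover 20.5% of the exon bases of Selenop, and Ccdc152 rose by 0.77.

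Of 23 genes of ubiquinone, tetrahydrobiopterin and other radical trapping routes, 11 fell and 7 rose (median -0.07). The ubiquinone synthesis genes Coq3 and Coq5 fell by 1.45 and 0.87 and the quinone reductase gene Nqo1 by 1.45 on the log2 scale. Pts, a tetrahydrobiopterin synthesis gene, rose by 1.31, from 3.11 to 7.71 CPM. Gch1, the entry enzyme of that route, was chosen after its value was seen and fell from 44.5 ± 1.45 to 24.9 ± 0.557 CPM (SD, n = 3 each).

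Of 20 tested genes of phospholipid supply and peroxidation, 11 fell and 6 rose (median -0.12). The acyl-CoA synthetase gene Acsl1 rose by 0.81 and the elongase gene Elovl5 by 0.79. Pebp1, known to bind lipoxygenases, fell by 0.69 and Sat1, a polyamine acetyltransferase gene, by 0.66 on the log2 scale. Other transcripts share 34.2% of the 50-base words of Pebp1.

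Of 30 tested iron genes besides the members, 14 fell and 10 rose (median -0.07), with 4 in each direction at least 2-fold. Among those higher was Steap4, which had almost no non-CSC counts and passed the count filter only through CSC. Cp, which encodes ceruloplasmin, the ferroxidase that works with ferroportin, went from 4.33, 3.83 and 4.73 CPM in non-CSC to 41.0, 47.1 and 45.2 CPM in CSC. Its log2 fold change was 3.37 ± 0.077 (SE; edgeR adjusted p = 2.12e-20). Trf, which encodes transferrin, the ligand of the Tfrc product, fell from 527, 521 and 516 CPM to 159, 168 and 152 CPM. Exons of Gm20425 on the same strand cover 76.7% of the exon bases of Trf, which makes its level uncertain. Hmox1, the haem oxygenase that frees iron from haem, fell by 1.13 and the haem transporter gene Slc48a1 by 1.26 on the log2 scale.

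Of 24 tested regulators, 16 fell and 8 rose (median -0.26). Ddit3 (CHOP) and Atf4 fell by 2.56 and 1.79, Sqstm1, an autophagy receptor that binds KEAP1, by 0.98, and the clock gene Arntl by 0.90 on the log2 scale. Opposite exons of Mrnip cover 20.6% of the exon bases of Sqstm1. Nfe2l2, which encodes NRF2, was chosen after its value was seen and rose by 0.56 ± 0.036 (SE; edgeR adjusted p = 2.53e-12). Of 5 tested genes used as readouts of ferroptosis or its stress response, 5 were called lower (median -1.45). Trib3 fell by 4.54, Cars by 1.45, Ddit4 by 0.76 and Hspa5 by 0.48 on the log2 scale. The last, Hspb1, was under 1 CPM on average in both groups. It passed the count filter only because of non-CSC, where it was higher, so its direction adds nothing to the count. Ptgs2, a common readout, averaged 0.079 CPM in non-CSC and had no CSC counts, and was not tested. For all 7 lists the share called was 78.3% to 100%. It stood beside 66.5% over all genes and 73.1% among genes with a mean of at least 50 counts. Chac1, Trib3, Ddit3 and Atf4 were already known to be low in CSC when the lists were made.

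**Figure D4:**
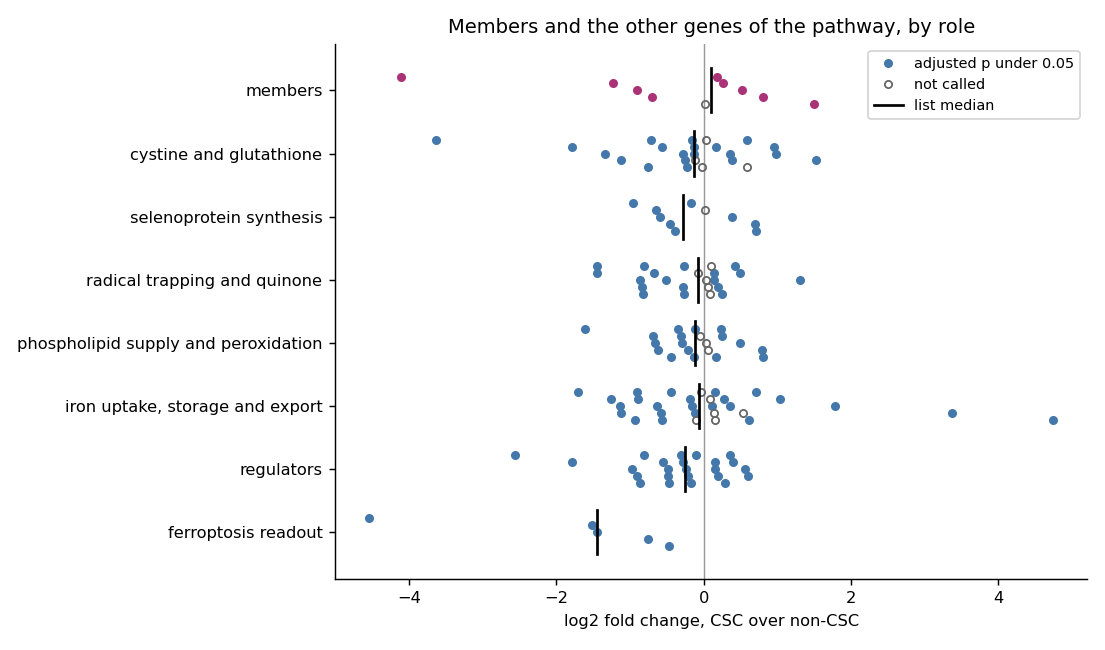
Log2 fold change (horizontal axis, CSC over non-CSC) of the 10 members (purple) and of the tested genes of 7 role lists (blue), with uncalled genes as open circles and each list's median as a black bar. Most list medians lie between -0.28 and -0.07, and the readout list lies at -1.45.

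The genes whose pattern over the 6 libraries was most like that of Slc7a11 were sought among 10029 other protein-coding genes with a mean of at least 5 CPM. Likeness was the Euclidean distance between log2 CPM profiles centred on their own mean. The nearest were Stc1 (0.364), Tnc (0.380), Oas3 (0.472), Ksr2 (0.522) and Trib3 (0.581), with Chac1 at 0.626. With 2 groups of tight replicates this distance reflects mostly the size of the difference between groups, and Stc1, for example, went from 121 ± 4.51 to 7.71 ± 0.742 CPM (SD, n = 3 each).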

How the data were processed

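RNA sequencing of 6 EO771 libraries was analysed. The values the authors deposited are unnormalised whole-number counts for each gene symbol. The submitters' processing notes name GRCm38. Aligner, counter, annotation and strand setting: not given in the sources used here. Columns were matched to samples by group word and replicate number.

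Genes were filtered with edgeR 4.0.16 (filterByExpr) in R 4.3.3, scaled with TMM (factors 0.974 to 1.03) and tested with the quasi-likelihood test, robust setting on, with Benjamini-Hochberg adjustment over 17630 genes. A standard error is the log2 fold change divided by the square root of F. CPM use TMM-scaled sums of the tested genes. The fit was tested on simulated data in which 200 genes were changed, up and down alike. In the real data 66.5% of tested genes were called, so the simulation did not cover that setting. Precision for counts this high is set mostly by the replicates; without molecular identifiers, reads may repeat a molecule.

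Members and lists were chosen with earlier results of these data known. Named are the members, 3 ratio partners, up to 4 genes per list (largest change, adjusted p under 0.05, mean of at least 5 CPM) and the 5 nearest profiles to Slc7a11; others are said to be chosen after their values were seen. Of the listed symbols 2 were matched through synonyms and Peds1 was not matched. Exon lengths, overlaps and 50-base words came from GENCODE M21, positions and promoters from RefSeq GRCm38.p6. Motifs were chosen after the changes were seen. Alternatives were other scalings and filters, DESeq2 1.42.0, limma-voom (limma 3.58.1), the robust setting off, a replicate block and each library left out.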

Additional observations from a re-analysis of the deposited data

How the results depend on the processing

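Under all 15 alternatives of scaling, filter, test, replicate block and left-out library, 9 of the 10 members were called, 5 higher and 4 lower. The direction and call of each of these 9 was kept in every alternative. The nearest to the threshold was Aifm2, with adjusted p-values of 0.000509 to 0.0379 and log2 fold changes of 0.15 to 0.24. Slc7a11 ranged from -4.16 to -4.04 and Tfrc from 1.47 to 1.57. The log2 fold change of Gpx4, never called (adjusted p 0.0545 to 0.952), was highest with library-size scaling (0.079, where the adjusted p was 0.0545), changed sign to -0.012 without a low-count filter, and without 1 library it ranged from -0.016 to 0.021. The log2 difference of the Fth1 to Ftl1 ratio ranged from -0.051 to 0.059 without 1 library; the cause was not tested. The share of all genes called was 41.7% without a low-count filter, where 30642 genes were tested, and 58.7% with DESeq2. Counts of the 7 role lists stayed within 1.5 times their main value, and the 34 other named genes kept direction and call. Same-numbered replicates did not deviate together (r = -0.026 to -0.011), and the replicate block called 9 members, with Slc7a11 at -4.11. Windows of 20 and 60 adjacent genes gave medians of -0.45 and -0.51 for Slc7a11 and -0.61 and -0.17 for Gclm.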

Other observations

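Of 4 tested genes of the Steap family, outside the naming rule and chosen after their values were seen, Steap3 rose. Steap1, at 4.25 and 4.71 CPM (edgeR adjusted p = 0.225), and Steap2, at 0.315 and 0.460 CPM (edgeR adjusted p = 0.198), overlapped between the groups. Cybrd1, which is not of this family, was not tested. Steap3, which reduces iron in endosomes after transferrin uptake, went from 1.11 ± 0.217 to 3.79 ± 0.607 CPM (SD, n = 3 each; log2 fold change 1.78, edgeR adjusted p = 1.60e-09). Steap4 was at 0.0288 to 0.0849 CPM in non-CSC and at 1.31 to 1.62 CPM in CSC. Its non-CSC counts of 1, 1 and 3 were near the floor. It passed the count filter only through CSC, where its counts were 37, 37 and 47, so its test is no evidence of a rise. The endosomal iron transporter gene Slc11a2 rose from 37.3 ± 0.958 to 61.1 ± 1.28 CPM (SD, n = 3 each; edgeR adjusted p = 1.71e-12). Slc39a14, an importer of iron not bound to transferrin, fell from 26.4 ± 0.620 to 17.1 ± 0.758 CPM (SD, n = 3 each; edgeR adjusted p = 1.27e-09).

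Of the iron sensing genes, also chosen after their values were seen, Fbxl5, which marks an iron regulatory protein for degradation when iron is plentiful, fell from 97.4 ± 2.70 to 65.1 ± 2.75 CPM (SD, n = 3 each; edgeR adjusted p = 2.33e-11). Ireb2 and Aco1, the genes of the iron regulatory proteins, had small log2 fold changes of 0.15 and -0.12. Both were called (edgeR adjusted p = 0.001 and 0.00453). Ncoa4, the receptor that delivers ferritin for degradation, was at 50.2 ± 1.18 and 48.9 ± 2.47 CPM (edgeR adjusted p = 0.477).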
